A study of Mus musculus with 5 samples.

Results

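The mRNAs followed here are those of 10 genes of the nitric oxide and endothelin pathways that set the tone of erectile tissue: Nos3, Nos1, Gucy1a1, Gucy1b1, Prkg1, Pde5a, Kcnmb1, Edn1, Ednra and Ednrb. They were taken by gene symbol, 10 of the 32285 genes that the 5 single-cell tables share, of which 28421 had a count in a kept cell. The libraries were 3 of mouse penis at postnatal day 6 (P6), dissected without the prepuce, and 1 each of forelimb and hindlimb at embryonic day 15 (E15), all labelled C57BL/6N with no transgene or treatment. The study's text gives the related strain C57BL/6J for all mice. It gives male mice of more than 1 litter for the penises, and male embryos for both forelimbs and hindlimbs. No label ties a mouse to a library, so the limb libraries may come from the same embryos. P-values therefore measure the spread between libraries, which may be partly technical, and the limb group of 2 libraries joins 2 different organs. Tissue, age and library preparation cannot be told apart in the penis and limb comparisons.

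Erection is a relaxation of smooth muscle in the arteries and blood spaces of the penis. Nitric oxide is made by the neuronal synthase (Nos1) in nerve fibres and by the endothelial synthase (Nos3) in the vessel lining. It binds soluble guanylate cyclase, a pair of 1 alpha chain (Gucy1a1) and 1 beta chain (Gucy1b1), which makes cyclic GMP. Cyclic GMP switches on a protein kinase (Prkg1) that lowers calcium in the muscle cell, in part through calcium-activated potassium channels whose beta subunit in smooth muscle is encoded by Kcnmb1. The phosphodiesterase encoded by Pde5a, the target of sildenafil, breaks cyclic GMP down. Endothelin-1 (Edn1) acts in the other direction: its receptor A (Ednra) contracts smooth muscle. Receptor B (Ednrb) is found on endothelium, where it leads to nitric oxide release, and on cells of the neural crest lineage such as glia and pigment cells.

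Cells were assigned to types by marker genes that did not include any of the 10, because no cell annotation was used. The gates held 380 to 457 endothelial cells, 173 to 223 mural cells and 3482 to 4234 mesenchymal cells in each penis library. The limb libraries held 295 to 358, 100 to 120 and 8923 to 9449 of these cells. Mural cells were a smooth muscle gate (92 to 129 penis cells a library) together with a pericyte gate (81 to 103 cells). In the penis the pericyte gate is the less certain of these. In each penis library 27 to 55 of its cells were at the limit of 4 of 7 markers, and 321 to 434 cells fell 1 marker short. Its summed mesenchyme markers were 4339 to 4729 CPM, close to the 5579 to 5699 CPM of the mesenchyme gate. The limb smooth muscle gates held 24 (forelimb) and 13 (hindlimb) cells, with 132 and 124 cells 1 marker short. Kept cells numbered 5708 to 7085 in the penis libraries and 20514 to 22057 in the limb libraries, with median depths of 8792 to 9909 and 5358 to 6057 unique molecular identifiers (UMIs, counted molecules). Levels are given as CPM (counts per 1000000), the gene's UMIs scaled to the UMIs of all genes in the gate's cells of 1 library. Libraries shared 20 to 203 cell barcodes by pair. The smooth muscle gate does not separate vessels from the cavernous tissue.

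Gucy1a1 (chr3:82092427-82145789, minus strand) and Gucy1b1 (chr3:82032006-82074689, minus strand) are neighbours on mouse chromosome 3, 17.7 kb apart (GRCm38, GENCODE vM21). The other 8 members have no other member as a near neighbour: Pde5a at chr3:122728947-122859374, plus strand, Nos1 at chr5:117781032-117958840, plus strand, Nos3 at chr5:24364810-24384474, plus strand, Prkg1 at chr19:30564489-31765033, minus strand, Edn1 at chr13:42301476-42307990, plus strand, Ednra at chr8:77663031-77724464, minus strand, Ednrb at chr14:103814625-103844402, minus strand, and Kcnmb1 at chr11:33963013-33973641, plus strand. All 10 are protein-coding. Prkg1 spans 1201 kb, so a large part of its sequence is intron, and whether intronic molecules were counted was not given in the sources used here. Kcnmb1 lies within the span of Kcnip1 on the opposite strand, and Ednra overlaps 4933431K23Rik, a transcript of the opposite strand.

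Promoter sequence before the first RefSeq start (GRCm38.p6) is shown for the pair of cyclase genes, because these were the most alike in level across cell types of the 8 members compared, and for endothelin-1 and its receptor A, as ligand and receptor with their highest levels in different cells. Of the 250 bases before a start, those inside the span of the GENCODE gene were left out, 139 for Gucy1a1 and 12 for Ednra. Capitals mark the GC box, GGGCGG. RefSeq promoter entries were found for 9 of the 10 genes, all but Nos3.
Gucy1a1 chr3:82145790-82145900 minus strand: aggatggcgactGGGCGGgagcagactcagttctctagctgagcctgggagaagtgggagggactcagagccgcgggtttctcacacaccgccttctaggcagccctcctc
Gucy1b1 chr3:82074712-82074961 minus strand: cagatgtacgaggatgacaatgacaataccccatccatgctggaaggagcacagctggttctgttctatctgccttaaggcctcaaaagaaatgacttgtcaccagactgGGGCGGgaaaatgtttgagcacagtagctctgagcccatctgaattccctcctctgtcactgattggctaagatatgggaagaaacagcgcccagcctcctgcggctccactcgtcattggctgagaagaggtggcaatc
Edn1 chr13:42301226-42301475 plus strand: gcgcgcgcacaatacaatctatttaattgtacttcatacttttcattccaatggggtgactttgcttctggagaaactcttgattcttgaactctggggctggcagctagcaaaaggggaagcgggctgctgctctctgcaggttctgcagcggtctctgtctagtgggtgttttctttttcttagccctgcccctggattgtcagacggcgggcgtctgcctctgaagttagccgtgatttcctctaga
Ednra chr8:77724465-77724702 minus strand: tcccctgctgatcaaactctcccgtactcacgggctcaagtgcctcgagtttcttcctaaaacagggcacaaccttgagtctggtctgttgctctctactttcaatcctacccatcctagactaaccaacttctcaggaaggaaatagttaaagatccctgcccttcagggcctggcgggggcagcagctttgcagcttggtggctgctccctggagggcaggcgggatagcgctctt
In the full windows of 250 bases and on either strand, a GC box was found 233 bases before the start of Gucy1a1 and 135 before that of Gucy1b1, and none in the windows of Edn1 and Ednra. The window of Pde5a, of which 211 bases lie inside the span of the GENCODE gene, held one 77 bases before the RefSeq start, in that stretch. Of 32851 mouse promoter windows of this length, 32.7% hold it. None of these 5 windows held TATAAA (12.4% of all windows), the CArG box of smooth muscle genes (1.47%), AGATAA (9.99%), TGACTCA (4.46%), TGACGTCA (1.55%) or CACGTG (6.02%).

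The mRNAs fell into distinct places in the penis. Nos3 and Edn1 were mainly endothelial, with 74.9 to 80.4% and 55.8 to 66.2% of their UMIs in endothelial cells, which were 6.42 to 6.73% of kept cells. Pde5a, Ednra and Prkg1 had their highest or near highest levels in CPM in mural cells, but most of their UMIs (81.2 to 83.2%, 73.9 to 76% and 67.5 to 71.6%) came from mesenchyme, which was 59.8 to 61.3% of cells. Gucy1a1 and Gucy1b1 were split between mural cells (33.7 to 41.5% and 34.4 to 37.3%), mesenchyme (28.1 to 34.3% and 36.7 to 41.2%) and endothelium (14.3 to 15.5% and 10.2 to 13.3%). Ednrb was a glial mRNA, with 70.9 to 75.9% of its UMIs in 2.52 to 2.86% of the cells. Nos1 and Kcnmb1 were close to absent, with 19 to 36 and 24 to 33 UMIs in a whole penis library.

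**Figure D1:**
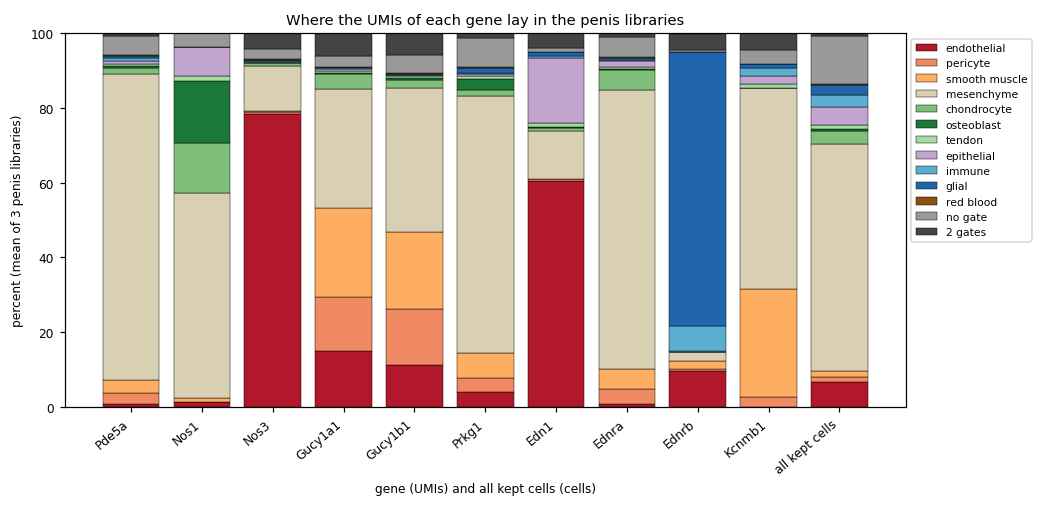
Share of each gene's UMIs, in percent, that came from each marker gate in the penis, as the mean of the 3 libraries. Nos3 bars are mostly endothelial, Ednrb bars mostly glial, and Pde5a, Ednra and Prkg1 bars mostly mesenchymal.

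Tests between gates of the penis used edgeR's quasi-likelihood test on UMIs summed per library and gate, with the library as a block. A gene was called at an adjusted p under 0.01 and a log2 fold change beyond 1. The study used these limits too, together with limits on the share of cells with the gene that were not applied here. The tests covered 8 of the members, all but the sparse Nos1 and Kcnmb1. Between mural and endothelial cells 7 of the 8 were called, where 26.3% of 14184 genes were. Between mural cells and mesenchyme 5 of 8 were called (8.4% of all genes), between endothelium and mesenchyme 7 of 8 (31.9%), and between glia and mesenchyme 6 of 8 (28.2%). Between smooth muscle and pericyte gates edgeR called 0 of the 6 tested members (2.92% of all genes), although 3 had an unadjusted p under 0.05, and DESeq2 also called 0. Between arterial and other endothelial cells 1 of 8 was called (1.01%).

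The penis and limb libraries were compared gate by gate with the same test and limits. In endothelium 3 of 8 tested members were higher in the penis, where 13.9% of 13371 genes were called in either direction and 7.29% higher. In the mural gate 3 of 6 were higher (13.5% called, 7.56% higher), in pericytes alone 2 of 6 (10.7% and 6.31%), in arterial cells 3 of 6 (8.63% and 5.29%) and in the other endothelial cells 3 of 8 (12.2% and 6.76%). Mesenchyme gave 2 of 10 members higher and 1 lower, which is near the 25.6% of all genes called there (12.7% higher, 13% lower). Chondrocytes gave 3 of 5 higher and 1 lower (19.4% called, 10.6% higher and 8.82% lower), epithelium 2 of 6 higher and 1 lower (11.1% called, 5.3% higher and 5.84% lower), immune cells 1 of 4 higher (20% called, 12.2% higher) and tendon cells 1 of 5 lower (12.5% called, 5.35% lower). In glia edgeR and DESeq2 each called 0 of 4 (16.7%), with 2 of the 4 at an unadjusted p under 0.05. In osteoblasts both called 0 of 3 (2.09%), with 2 at an unadjusted p under 0.05. Over all kept cells 5 of 10 members, Pde5a, Ednra, Nos3, Edn1 (log2 1.65) and Gucy1a1 (log2 1.52), were higher (24.5% called, 13% higher), and there the mix of cells and the level within a cell type cannot be told apart.

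Nos3, the endothelial nitric oxide synthase, was an endothelial mRNA in both tissues and was somewhat higher in the penis. Its level in endothelial cells was 73.9, 67.1 and 77.9 CPM in penis libraries 1, 2 and 3, and 45.5 and 42.9 CPM in forelimb and hindlimb. All 3 penis values lay above both limb values, and the difference was log2 0.68 ± 0.11 (SE) (adjusted p = 0.00011), short of the limit on the fold. At a common depth of 2000 UMIs a cell, a Nos3 UMI was found in 13.5 ± 0.492% (SD, n = 3) of penis and 9.82% of limb endothelial cells (47.7% and 30.5% unthinned). The groups did not overlap, and the exact permutation p of 0.1 is the smallest that 3 libraries against 2 allow.

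Outside the endothelium Nos3 was at or under 3.08 CPM in the 9 other penis gates, the neighbouring levels in that order overlapping from pericyte to osteoblast. It was higher in endothelium than in mesenchyme by log2 5.94 ± 0.12 (SE) (adjusted p = 8.1e-18) and lower in mural than in endothelial cells (log2 -5.87 ± 0.23 (SE)). Arterial endothelial cells, marked by genes such as Gja5 and Dll4, held 98.5, 75.3 and 96.2 CPM in the penis, and the other endothelial cells 68.1, 67.7 and 77.9 CPM. Those ranges overlapped, and the difference of log2 0.36 ± 0.12 (SE) was not called (adjusted p = 0.16). In the limbs the mean was 66.8 CPM in arterial and 52.1 CPM in the other endothelial cells, against penis means of 90 and 71.3 CPM. Lymphatic cells had a mean of 2.10 CPM in the limbs, from 2 UMIs, and 28 CPM in the penis, from 17 UMIs. They numbered 33 and 32 in forelimb and hindlimb and 12, 16 and 20 in the penis libraries. Their part in the difference over the endothelial gate was not tested. Over all kept cells Nos3 was 6.65, 6.43 and 7.41 CPM in the penis and 2.02 and 1.86 CPM in the limbs, log2 1.75 higher (adjusted p = 1.6e-06). Endothelial cells were 6.42 to 6.73% of penis cells and 1.44 to 1.62% of limb cells. The part of this share in the difference over all kept cells was not tested.

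Nos1, the neuronal synthase, gave 36, 25 and 19 UMIs in the whole penis libraries and 96 and 106 in the limb libraries, which held more UMIs of all genes. Scaled to these, the mean was 0.421 CPM in the penis and 0.693 CPM in the limbs. The gene was tested between penis and limb in mesenchyme and over all kept cells and was not called. In forelimb and hindlimb 33.3 and 31.1% of its UMIs were in chondrocytes and 12.5 and 19.8% in skeletal muscle. The cell bodies of the nerves that use it in erection lie in the pelvic ganglia, outside the organ, and no penis cell had more than 3 of 6 neuron markers. Glia held 0 Nos1 UMIs in all 5 libraries, which allows up to 0.549 CPM over the penis glia by counting error. Of the few penis UMIs, 44 to 68.4% were in mesenchyme. The small osteoblast gate (29 to 40 cells a penis library) held 4, 7 and 2 Nos1 UMIs, or 8.04, 10.5 and 3.99 CPM, the highest level of any penis gate, while the limb osteoblast gates held 0 and 2. These counts were too low for a test of that gate.

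Gucy1a1, the alpha chain of the nitric oxide receptor, was highest in smooth muscle and pericytes of the penis, followed by endothelium. Smooth muscle held 302, 311 and 367 CPM and pericytes 211, 229 and 347 CPM in penis libraries 1, 2 and 3. Those ranges overlapped, although smooth muscle was higher than pericytes within each library, and both lay above the endothelium. Chondrocytes, at 22 ± 4.92 CPM (SD, n = 3), and mesenchyme, at 12.4 ± 0.524 CPM (SD, n = 3), came next without overlap. Osteoblasts (11.7 ± 3.85 CPM (SD, n = 3)) and tendon cells (11.6 ± 5.65 CPM (SD, n = 3)) overlapped the mesenchyme, and immune, epithelial and glial cells held 0.5 to 3.3 CPM. In the penis it was higher in mural than in endothelial cells by log2 2.47 ± 0.09 (SE) (adjusted p = 1.6e-13), and higher in mural cells than in mesenchyme by log2 4.61 ± 0.09 (SE) (adjusted p = 4.5e-17). Endothelial cells in turn exceeded mesenchyme by log2 2.14 ± 0.10 (SE).

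The endothelial level of Gucy1a1 was the widest difference of any member among those tested between penis and limb. Endothelial cells held 46.5, 50.1 and 59.3 CPM in the penis, from 230, 245 and 233 UMIs, and 2.83 and 2.63 CPM in forelimb and hindlimb, from 9 and 9 UMIs. Every penis library was above both limb libraries, and the difference was log2 4.19 ± 0.23 (SE) (adjusted p = 3.1e-10). By UMIs alone the ratio was 18.9 (exact binomial 95% interval 11.9 to 32.1), an interval that covers counting error only. A Gucy1a1 UMI was found in 8.14 ± 1.23% (SD, n = 3) of penis and 0.560% of limb endothelial cells at 2000 UMIs a cell, again with no overlap (exact permutation p = 0.1). In glia the shares were 0.274 ± 0.187% (SD, n = 3) and 0.170%, and in epithelium 0.669 ± 0.137% (SD, n = 3) and 0.973%. The limb endothelial share lay between those of limb glia and limb epithelium, and no background level was measured.

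Markers of mural cells, which held Gucy1a1 at a higher level, were also measured in the endothelial gate. Its summed pericyte markers were 31 to 35 CPM in the penis and 53 and 55 CPM in the limbs, with Higd1b at 0 in all penis libraries, and its summed smooth muscle markers were 58 to 61 CPM against 35 and 23 CPM. Endothelial cells without any UMI of these 15 mural markers (298 to 372 a penis library, a set chosen after the data were seen) held 48.0, 51.8 and 61.7 CPM, against 1.40 and 1.77 CPM in the limbs. The part of mural RNA in the endothelial difference was not tested beyond these values. The arterial cells held 41.1, 84.5 and 77.4 CPM in the penis and 7.18 and 1.94 CPM in the limbs (log2 3.88 ± 0.57 (SE), adjusted p = 7.1e-05), where the 2 limb values rest on 3 and 1 UMIs and the ratio by UMIs is 15.2 (exact binomial 95% interval 5.86 to 56.5). Without the hindlimb the arterial difference was 3.18 and not called, and with 1 more marker needed it was 1.92 and not called. The other endothelial cells held 48.2, 38.3 and 40.6 CPM in the penis and 2.32 and 2.88 CPM in the limbs (log2 3.97 ± 0.28 (SE), adjusted p = 8.9e-09), and the call held as each library was left out in turn. Lymphatic endothelial cells, 12 to 20 a penis library and so not tested, held 52, 55.8 and 171 CPM in the penis and 0 UMIs in both limbs, which allows up to 3.15 CPM there.

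In the mural gate the penis and limb levels of Gucy1a1 were closer. They were 267, 270.1 and 358 CPM against 160.5 and 167 CPM, log2 0.84 ± 0.14 (SE) (adjusted p = 0.00032), without overlap but short of the limit on the fold. The penis excess was larger in endothelium than in mural cells (a difference of log2 -3.38 ± 0.27 (SE) between mural and endothelial excess, adjusted p = 8e-08). It was also larger in endothelium than in mesenchyme, by log2 3.63 ± 0.26 (SE) (adjusted p = 5.2e-09). For the first of these tests 4 of 9 members were called, where 4.94% of 15337 genes were, and for the second 5 of 9, where 9.38% were. In mesenchyme itself Gucy1a1 was 11.8, 12.9 and 12.4 CPM against 7.77 and 7.97 CPM (log2 0.63 ± 0.08 (SE), not called), and in chondrocytes 16.3, 25.4 and 24.1 CPM against 7.14 and 4.32 CPM (log2 1.98 ± 0.26 (SE), adjusted p = 5.2e-05).

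**Figure D2:**
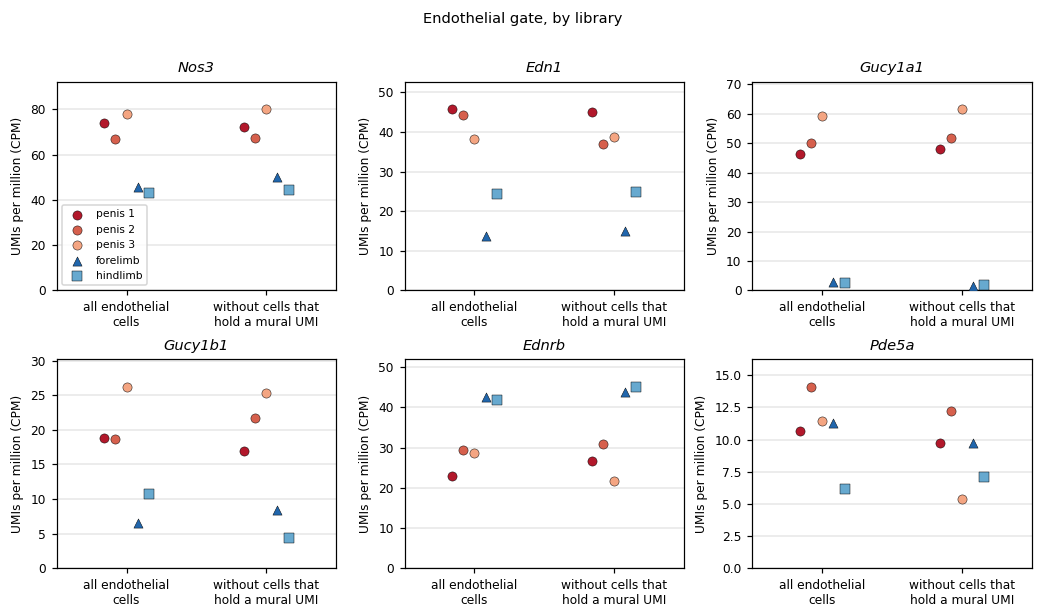
Members in the endothelial gate, in CPM by library, with all gated cells beside those without a UMI of any mural marker. For Gucy1a1 the 3 penis libraries stand far above both limb libraries in either set of cells.

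Gucy1b1, the beta chain of the same enzyme, followed the alpha chain across the cell types of the penis. Over 30 sums of library and gate, log2(CPM + 1) of both genes had a Pearson r of 0.97, and among 13851 genes searched each was the one most like the other. The sums share libraries and depth, so this is a description. Mural cells of the penis held 136, 147 and 163 CPM, endothelial cells 18.8, 18.6 and 26.2 CPM and mesenchyme 8.07 ± 0.430 CPM (SD, n = 3). The mural level was higher than the endothelial by log2 2.77 ± 0.12 (SE) (adjusted p = 2.2e-12) and than the mesenchymal by log2 4.23 ± 0.11 (SE) (adjusted p = 3e-15), and the endothelial level exceeded the mesenchymal by log2 1.46 ± 0.14 (SE).

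Between tissues the beta chain was higher in the endothelium of the penis. In the whole endothelial gate Gucy1b1 was 18.8, 18.6 and 26.2 CPM in the penis and 6.59 and 10.8 CPM in forelimb and hindlimb. All penis values were higher, with a difference of log2 1.22 ± 0.24 (SE) (adjusted p = 0.00056). It was 0.92 and not called without the forelimb, the lower of the limb values, and 0.92 as well with 1 more marker needed. The endothelial cells that were neither arterial nor lymphatic held 16.8, 15 and 14.2 CPM in the penis and 3.71 and 3.84 CPM in the limbs, from 8 and 8 UMIs. There the difference was log2 1.98 ± 0.30 (SE) (adjusted p = 6.8e-05), and the call held as each library was left out in turn. The penis minus limb difference was larger in endothelium than in mesenchyme by log2 1.62 ± 0.34 (SE) (adjusted p = 0.0015), a call lost without the forelimb (1.04) or penis library 3 (1.45). In mesenchyme the mean was 8.07 CPM in the penis and 10.2 CPM in the limbs, with overlap. In the mural gate the penis values of 136, 147 and 163 CPM overlapped the limb values of 98.6 and 143 CPM (log2 0.28 ± 0.15 (SE), adjusted p = 0.16). Lymphatic cells, too few to test, held 80.8, 60.9 and 171 CPM in the penis, from 14, 12 and 38 UMIs, and 14.7 and 29.5 CPM in the limbs, from 7 and 14 UMIs.

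A few Gucy1b1 values ran the other way outside vessels. Epithelial cells held 0.565, 0.782 and 0.787 CPM in the penis, from 2, 3 and 2 UMIs, and 5.57 and 6.59 CPM in the limbs, from 7 and 10 UMIs. The limb values were higher (log2 -2.98 ± 0.62 (SE), adjusted p = 0.0031), with a penis to limb ratio by UMIs of 0.115 (exact binomial 95% interval 0.0404 to 0.292), but the call was lost without the forelimb, and without the hindlimb the gene was under the filter on low counts. Tendon cells held 4.21, 3.86 and 4.32 CPM in the penis and 23.9 and 12.4 CPM in the limbs (log2 -1.99 ± 0.47 (SE), adjusted p = 0.0047), a call that DESeq2 did not make and that was lost without any single penis library or the forelimb.

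Prkg1, the cyclic GMP-dependent kinase, was detected in each of the 10 penis gates compared and was highest in smooth muscle and osteoblasts. Smooth muscle held 1568, 1798 and 1877 CPM, osteoblasts 1646, 1676 and 1552 CPM and pericytes 1294, 1066 and 1545 CPM in the penis. Smooth muscle and osteoblasts overlapped, pericytes lay just under the osteoblasts without overlap, and mesenchyme followed at 511 ± 27.3 CPM (SD, n = 3). The osteoblast gate held 29 to 40 cells a penis library. At 2000 UMIs a cell, a Prkg1 UMI was found in 43.3, 45.4 and 44% of penis osteoblasts. The shares were 44.8, 43.9 and 45.9% in mesenchyme and 80.7, 85.3 and 87% in smooth muscle. Penis cells that met no gate, 11.9 to 13.8% of kept cells, held 885, 1052 and 1131 CPM, and gave 6.17 to 8.79% of Prkg1 UMIs. The mural level exceeded the endothelial by log2 2.53 ± 0.07 (SE) (adjusted p = 1.9e-15) and the mesenchymal by log2 1.63 ± 0.06 (SE) (adjusted p = 7.7e-13). Between smooth muscle and pericytes the difference was log2 0.49 ± 0.08 (SE) (adjusted p = 0.00032), and between endothelium and mesenchyme log2 -0.90 ± 0.06 (SE), both short of the limit on the fold. The last was -1.03 and called without penis library 3.

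Prkg1 differed between tissues in opposite directions by cell type. In mesenchyme it was 513, 483 and 537 CPM in the penis and 265 and 349 CPM in the limbs, and in the mural gate 1462, 1434 and 1733 CPM and 805 and 1191 CPM. Neither set overlapped, with differences of log2 0.71 ± 0.10 (SE) and 0.61 ± 0.14 (SE) that did not reach the limit on the fold. Chondrocytes went the other way, with 187, 181 and 111 CPM in the penis under 397 and 400.2 CPM in the limbs (log2 -1.29 ± 0.16 (SE), adjusted p = 4.2e-05). Glia also had less in the penis, 187, 186 and 238 CPM against 409 and 381 CPM (log2 -0.90 ± 0.11 (SE), adjusted p = 5.9e-06), short of the limit, though called without penis library 3 (-1.01). Endothelial cells held 222, 250.03 and 307 CPM against 157 and 177 CPM (log2 0.59 ± 0.12 (SE)), and arterial cells alone 162, 275 and 372 CPM against 67 and 91.4 CPM (log2 1.71 ± 0.30 (SE), adjusted p = 0.00038), a call lost without either limb library. The other endothelial cells held 244, 246 and 287 CPM against 96.1 and 134 CPM (log2 1.13 ± 0.12 (SE), adjusted p = 1.1e-06), which was called, and 0.92 and not called without the forelimb.

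Pde5a, the enzyme that ends the cyclic GMP signal, was present in mural cells and in the mesenchyme of the penis. Pericytes held 231, 214 and 259 CPM, smooth muscle 210.3, 243 and 192 CPM and mesenchyme 146, 143 and 149 CPM in penis libraries 1, 2 and 3. Pericytes and smooth muscle overlapped, and both lay above mesenchyme without overlap. The mural excess over mesenchyme was log2 0.65 ± 0.06 (SE) (adjusted p = 3.3e-07), under the limit on the fold. Endothelial cells had the lowest mean of the 10 gates, at 10.7, 14.1 and 11.5 CPM, a range that the immune gate overlapped. Mural cells exceeded them by log2 4.15 ± 0.10 (SE) (adjusted p = 8.7e-16), and mesenchyme did so as well (log2 -3.50 ± 0.09 (SE) for endothelium against mesenchyme, adjusted p = 8.6e-16).

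Pde5a was higher in the penis than in the limbs in mural cells, mesenchyme and chondrocytes. Mesenchyme of forelimb and hindlimb held 36 and 39.8 CPM, under every penis value above, a difference of log2 1.92 ± 0.06 (SE) (adjusted p = 1.8e-08). The mural gate held 218, 229 and 221 CPM in the penis and 66.8 and 73.1 CPM in the limbs (log2 1.65 ± 0.12 (SE), adjusted p = 2.8e-07). The mural gates differed in make-up, with summed smooth muscle markers of 5689 to 6538 CPM in the penis and 1832 and 1493 CPM in the limbs. In the pericyte gate alone, where these markers were 850 to 1184 and 662 and 455 CPM, limb Pde5a was 69.1 and 58 CPM and the difference log2 1.84 ± 0.16 (SE) (adjusted p = 1.8e-06). The part of the make-up of the gates in the mural difference was not tested. At 2000 UMIs a cell, Pde5a was found in 35.5 ± 1.59% (SD, n = 3) of penis and 14.2% of limb mural cells, and in 22.4 ± 0.642% and 6.69% of mesenchymal cells, each without overlap and with an exact permutation p of 0.1.

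In endothelium no difference of Pde5a was called. Its 10.7, 14.1 and 11.5 CPM in the penis overlapped 11.3 and 6.13 CPM in the limbs (log2 0.44 ± 0.27 (SE), adjusted p = 0.19). The penis excess was smaller in endothelium than in mesenchyme (log2 -1.41 ± 0.26 (SE), adjusted p = 0.00037) and larger in mural than in endothelial cells (log2 1.19 ± 0.27 (SE), adjusted p = 0.0056), but without the forelimb neither difference was called, at -0.83 and 0.63. The second also lost its call without penis library 1 (1.11) or 3 (1.16), or without the deepest 10% of cells (1.00). Chondrocytes held 45.9, 37.7 and 39.6 CPM in the penis and 18.8 and 21 CPM in the limbs (log2 1.06 ± 0.12 (SE), and 0.98 and not called without penis library 1). Immune cells held 10.5, 34.5 and 27.8 CPM and 5.16 and 5.97 CPM, again without overlap (log2 2.12 ± 0.38 (SE), adjusted p = 0.0014), a call lost without either limb library. At 2000 UMIs a cell a Pde5a UMI was found in 2.56 ± 1.05% (SD, n = 3) of penis and 0.815% of limb immune cells, near the 2.04 ± 0.220% (SD, n = 3) and 1.24% of endothelial cells, the gate with the lowest mean. Free RNA in the droplets was not measured, the level over all kept cells differed between tissues in the same direction, and the part of free RNA in the immune values was not tested. The summed mesenchyme markers of the immune gate overlapped between tissues, at 479 to 751 CPM in the penis and 700.3 and 573 CPM in the limbs. Over all kept cells Pde5a was 117, 116 and 119 CPM in the penis and 28.8 and 31.2 CPM in the limbs (log2 1.90 ± 0.05 (SE), adjusted p = 5.6e-08).

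Kcnmb1, the potassium channel subunit taken as a smooth muscle gene, gave 27, 33 and 24 UMIs in the penis libraries and 30 and 41 in the limb libraries. Smooth muscle cells held 6, 9 and 9 of them in the penis, or 3.92, 8.53 and 9.46 CPM, the highest of the gates and above the 1.03, 0 and 1.38 CPM of pericytes without overlap. In the smooth muscle gates of the limbs 0 UMIs were found, which allows up to 3.90 CPM over the 37 limb cells. The mean penis level was 1.87 times this limit, with no allowance for the spread or counting error of the penis libraries. Penis library 1 lay close to the limit itself. Endothelial cells held 0 UMIs in all 5 libraries, which allows up to 0.218 CPM over the penis cells. In the comparisons of penis with limb by gate, the gene passed the filter on low counts for mesenchyme and all kept cells. There the penis difference was log2 0.84 ± 0.43 (SE) and 0.81 ± 0.24 (SE), neither called. It also entered the tests of unequal excess, where it was not called.

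Edn1, the precursor of endothelin-1, was highest in endothelium and next in epithelium. Endothelial cells of the penis held 45.9, 44.2 and 38.2 CPM, epithelial cells 16.1, 18.5 and 16.5 CPM and tendon cells 6.31, 3.86 and 4.32 CPM. These ranges did not overlap, and the other gates lay at or under 3.21 CPM, with 0 UMIs in smooth muscle (up to 0.848 CPM by the count). Endothelium exceeded mesenchyme by log2 5.49 ± 0.17 (SE) (adjusted p = 8.4e-15), and mural cells were lower than endothelium (log2 -6.10 ± 0.37 (SE)). Epithelial cells gave 16.6 to 18.3% of all Edn1 UMIs.

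Within the endothelium of the penis Edn1 was higher in arterial cells. Arterial cells held 119, 125 and 81.2 CPM and the other endothelial cells 24.4, 25.3 and 29.5 CPM. All arterial values were higher, and the difference of log2 2.08 ± 0.16 (SE) (adjusted p = 1.6e-06) was the only one called among the 8 members tested there. Without penis library 1 Gucy1a1 was called as well, at 1.05. In the limbs the arterial cells held 28.7 and 27.2 CPM and the other endothelial cells 12.5 and 26.4 CPM, from 31 and 37 arterial cells. The penis and limb difference was log2 1.95 ± 0.29 (SE) in arterial cells (adjusted p = 9.4e-05). Over the whole endothelial gate, with limb values of 13.8 and 24.2 CPM, it was log2 1.12 ± 0.18 (SE) (adjusted p = 0.00011), close to the limit and 0.79 without the forelimb, 0.98 without the deepest 10% of cells and 0.88 over all barcodes. Over all barcodes the arterial difference was 1.13 and not called. In the other endothelial cells it was log2 0.40 ± 0.24 (SE) (adjusted p = 0.2), though 1.02 and called without the hindlimb. Arterial cells were 19, 16.5 and 16.8% of the endothelial gate in the penis libraries and 8.66 and 12.5% in forelimb and hindlimb, and the part of this share in the difference over the whole gate was not tested. At 2000 UMIs a cell, Edn1 was found in 6.45 ± 0.342% (SD, n = 3) of penis and 3.23% of limb endothelial cells (exact permutation p = 0.1). Epithelial cells of the limbs held 6.37 and 5.93 CPM, under all penis values (log2 1.52 ± 0.31 (SE), adjusted p = 0.0025), and this call was lost without the forelimb (1.58) or the hindlimb (1.46). The penis minus limb difference of Edn1 was larger in endothelium than in mesenchyme by log2 1.51 ± 0.28 (SE) (adjusted p = 0.00053), a call lost without the hindlimb (1.53). In mesenchyme its mean was 1.01 CPM in the penis and 1.23 CPM in the limbs, with overlap.

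Ednra, the receptor through which endothelin contracts smooth muscle, varied across the cell types of the penis much as Pde5a did. Over the 30 penis sums of library and gate the log2(CPM + 1) values of both genes had r = 0.92. Smooth muscle held 265, 352 and 261 CPM and pericytes 237, 237 and 342 CPM in the penis, overlapping each other. Chondrocytes, at 122, 112 and 119 CPM, and mesenchyme, at 115, 112 and 116 CPM, overlapped below them, and endothelial cells were lowest at 6.46, 13.3 and 8.66 CPM. Mural cells exceeded mesenchyme by log2 1.34 ± 0.08 (SE) (adjusted p = 1.9e-10) and endothelium by log2 4.83 ± 0.12 (SE) (adjusted p = 1.6e-15). Endothelium was lower than mesenchyme (log2 -3.49 ± 0.12 (SE)). The gene most like Ednra was 4933431K23Rik (r = 0.967), which overlaps it on the opposite strand, and whether the counting used strand was not given in the sources used here.

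Ednra was higher in the penis in chondrocytes, mural cells and mesenchyme. Chondrocytes held 11.7 and 10.9 CPM in the limbs, far under the penis values, and this was the widest difference of the gene (log2 3.41 ± 0.11 (SE), adjusted p = 5e-10). The summed mesenchyme markers of the chondrocyte gate, all 10 detected, were 6263 to 6525 CPM in the penis and 2572 and 2305 CPM in the limbs. In the penis they were above those of the mesenchyme gate given earlier. Their part in the chondrocyte differences of Ednra, Pde5a, Gucy1a1 and Prkg1 was not tested. The mural gate held 254, 295 and 296 CPM in the penis and 77.4 and 83.4 CPM in the limbs (log2 1.79 ± 0.13 (SE), adjusted p = 2.1e-07), and pericytes alone gave log2 1.98 ± 0.19 (SE) with limb values of 72.5 and 60.6 CPM. Mesenchyme of the limbs held 39.5 and 36.3 CPM (log2 1.57 ± 0.06 (SE), adjusted p = 6.5e-08). A UMI of Ednra was found in 40.2 ± 3.35% (SD, n = 3) of penis and 17.7% of limb mural cells at 2000 UMIs, and in 18.9 ± 0.274% and 7.42% of mesenchymal cells, each without overlap (exact permutation p = 0.1).

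In endothelium no difference of Ednra was called either. Its limb values of 11 and 5.55 CPM overlapped the penis values (log2 0.17 ± 0.33 (SE), adjusted p = 0.71). The penis excess was smaller there than in mesenchyme (log2 -1.33 ± 0.32 (SE), adjusted p = 0.0045) and larger in mural than in endothelial cells by log2 1.60 ± 0.34 (SE) (adjusted p = 0.0037). Both calls were lost without the forelimb (-0.82 and 0.98) or penis library 3 (-1.31 and 1.52), and the first also without penis library 1 (-1.09). Without the deepest 10% of cells both were lost as well, at -0.69 and 0.94. Epithelial cells held 21.8, 29.7 and 28.7 CPM in the penis and 9.55 and 13.8 CPM in the limbs (log2 1.22 ± 0.27 (SE), adjusted p = 0.0049), a call lost without penis library 2 or 3, the forelimb or the hindlimb. Over all kept cells the gene was 101, 98.1 and 104 CPM against 28.8 and 26.6 CPM (log2 1.80 ± 0.06 (SE)).

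Ednrb, the second endothelin receptor, was foremost a glial mRNA. Glial cells, Schwann-lineage cells marked by genes such as Sox10, held 556, 536 and 482 CPM in the penis. Immune cells held 53.8, 40.5 and 48.3 CPM, endothelial cells 22.8, 29.5 and 28.8 CPM and smooth muscle 27.4, 13.3 and 25.2 CPM. Glia and immune cells stood above the next gate without overlap, and endothelium and smooth muscle overlapped. Glia exceeded mesenchyme by log2 9.51 ± 0.11 (SE) (adjusted p = 2.5e-20), endothelium exceeded mesenchyme by log2 5.23 ± 0.17 (SE), and mural cells did so by log2 4.46 ± 0.26 (SE). The mural and endothelial levels differed by log2 -0.76 ± 0.18 (SE), under the limit on the fold, and by -1.01, which was called, without penis library 1. Smooth muscle was higher than pericytes by log2 1.40 ± 0.36 (SE), which was not called (adjusted p = 0.016).

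In glia, immune cells and endothelium the Ednrb values of the penis lay under those of the limbs. Limb glia held 848 and 876 CPM, above all penis values (log2 -0.65 ± 0.09 (SE), adjusted p = 2.2e-05), and at 2000 UMIs an Ednrb UMI was found in 49.7 ± 2.55% (SD, n = 3) of penis and 69.8% of limb glia (exact permutation p = 0.1). The summed glial markers in that gate moved the other way, 14585 to 15009 CPM in the penis against 2331 and 2373 CPM in the limbs. Limb immune cells held 95.5 and 75.8 CPM (log2 -0.83 ± 0.15 (SE), adjusted p = 0.0015) and limb endothelial cells 42.7 and 41.8 CPM (log2 -0.69 ± 0.14 (SE), adjusted p = 0.00069), in both cases above the penis values. None of these 3 differences reached the limit on the fold, although the immune one was -1.01 and called without the hindlimb. In mesenchyme the level was 0.698, 0.873 and 0.678 CPM against 3.13 and 1.59 CPM, low in both tissues (log2 -1.66 ± 0.31 (SE), adjusted p = 0.00093).

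In the mural gate Ednrb was higher in the penis. It held 48, 24 and 31 UMIs there, or 19.2, 11.5 and 18.5 CPM, and 2 and 2 UMIs, or 1.25 and 1.37 CPM, in the limbs. All penis values were higher, with log2 3.57 ± 0.51 (SE) (adjusted p = 0.0001) and a ratio by UMIs of 12.6 (exact binomial 95% interval 4.77 to 47). Most of these UMIs were in the smooth muscle gate (42, 14 and 24 in the penis, 0 in both limbs). There the mean penis level was 5.64 times the limit that 0 counts over the 37 limb cells allow. This ratio makes no allowance for the spread or counting error of the penis libraries. In pericytes alone, with 2 and 2 limb UMIs, the difference was log2 2.16 ± 0.67 (SE) (adjusted p = 0.025) and was not called, although it was 3.19 and called with 1 more marker needed. The smooth muscle share of the mural gate also differed between tissues, and its part in the mural difference was not tested. The penis minus limb difference was larger in mural cells than in endothelium by log2 4.34 ± 0.64 (SE) (adjusted p = 0.0001) and than in mesenchyme by log2 5.32 ± 0.63 (SE) (adjusted p = 1.7e-05). In endothelium and mesenchyme the penis values lay under those of the limbs. With pericytes in place of mural cells, a choice made later, the difference from endothelium was 2.94 and not called. In the test against mesenchyme Ednrb was the only member of 9 called, where 2.81% of 15337 genes were.

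The genes most like each member over the 30 penis sums, by Pearson r of log2(CPM + 1), are given here as a description. For Nos3 the first was Myct1 (r = 0.958). For Pde5a they were Pde1a (0.947), another phosphodiesterase that acts on cyclic GMP, Cd248 (0.941) and Pdgfrb (0.940), the latter a receptor of mural and mesenchymal cells. For Gucy1a1 the second after its partner was Pde3a (0.910), and for Gucy1b1 it was Mprip (0.932), a myosin phosphatase partner. Edn1 was most like Agr2 (0.912), Prkg1 like Ccdc80 (0.913) and Ednrb like Dip2b (0.897). With log2(CPM + 5), 3 of the first 3 genes were kept for Pde5a and Ednra, 2 for Nos3, Prkg1 and Edn1, and 1 for each of the others.

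A list of 57 further genes of the same pathways was tested in the same comparisons, and each count stands beside the share of all genes called. The list was chosen with earlier results of these data known, so the counts are a description. In the mural gate 17 of 46 tested genes were higher in the penis and 3 lower, with a median log2 of 0.59 against 0.01 over all genes, of which 7.56% and 5.92% were called higher and lower. Of the 7 contractile genes 6 were higher, as were 4 of 12 targets of the kinase, 3 of 12 genes for cyclic GMP making and breakdown and 3 of 7 for endothelin processing and signalling. The genes with the largest changes were Pde1a (log2 3.86 ± 0.16 (SE)), Kcnma1 (log2 2.62 ± 0.15 (SE)), the pore of the channel whose subunit is Kcnmb1, and Edn3 (log2 2.31 ± 0.31 (SE)), another endothelin. On the lower side stood Pde10a (log2 -2.73), Ddah1 (log2 -1.95), which degrades an inhibitor of the synthases, and the arginine carrier Slc7a1 (log2 -1.23). The smooth muscle markers of the gate given above moved with the contractile genes, and their part was not tested. In pericytes alone 11 of 43 were higher and 3 lower (all genes 6.31% and 4.44%), contractile genes in 3 of 7 cases, led by Pde1a (log2 3.88), Edn3 (2.59) and Cav1 (2.15).

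In endothelium 10 of 47 pathway genes were higher in the penis and 3 lower (median log2 0.23, all genes 0.01, with 7.29% and 6.6% called higher and lower). Mme, a peptidase that degrades endothelin and other peptides, rose most (log2 4.83 ± 0.14 (SE), adjusted p = 4.5e-13), followed by the phosphodiesterases Pde1a (log2 3.00 ± 0.34 (SE)) and Pde3a (log2 2.38 ± 0.15 (SE)). The other alpha chain of the cyclase, Gucy1a2, fell (log2 -1.61 ± 0.29 (SE), adjusted p = 0.00026), opposite to Gucy1a1, as did Pde2a (log2 -1.59) and Tpm2 (log2 -1.10). Gucy1a2 and Tpm2 were far higher in mural than in endothelial cells of the penis, and the summed pericyte markers of the endothelial gate, given above, were also lower in the penis. The summed smooth muscle markers of that gate, also given above, were higher in the penis. The part of either in these changes was not tested. In arterial cells 6 of 39 were higher and 0 lower (all genes 5.29% and 3.34%), with Mme again first (log2 6.77). In the other endothelial cells 10 of 46 were higher and 3 lower (all genes 6.76% and 5.43%).

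Mesenchyme had 16 of 56 pathway genes higher and 6 lower (median log2 0.05, all genes 0.01, with 12.7% and 13% called higher and lower). Pde1a (log2 4.31), Mrvi1 (3.23), a kinase target at the calcium store, and Edn3 (2.55) led the higher genes. Pde10a (-2.90), Nostrin (-2.72) and Ass1 (-2.52), an enzyme of arginine supply, led the lower. In glia 5 of 41 genes were higher and 9 lower (median log2 -0.21, all genes 0.01, with 8.61% and 8.04% called higher and lower). The remaining gates are given with the shares of all genes called higher and lower there. They gave 10 higher and 7 lower of 49 in chondrocytes (10.6% and 8.82%), 6 and 7 of 46 in epithelium (5.3% and 5.84%), 10 and 2 of 42 in immune cells (12.2% and 7.75%), 9 and 2 of 41 in tendon cells (7.12% and 5.35%) and 1 and 0 of 34 in osteoblasts (1.31% and 0.781%). Pde1a was also called higher in immune cells (log2 3.77), epithelium (3.09), chondrocytes (3.66), osteoblasts (3.85), tendon cells (2.39) and glia (1.47). Over all kept cells its difference was 3.91. Pde10a was also called lower in immune cells (-3.77), epithelium (-1.83) and tendon cells (-3.54). Free RNA was not measured, and its part in these changes was not tested.

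Within the penis mural cells exceeded endothelium in 20 of 51 further genes (16% of all genes), among them 6 of 7 contractile genes and 5 of 12 targets of the kinase, led by Mrvi1 (log2 6.59), the muscle tropomyosin Tpm2 (6.12) and Gucy1a2 (5.78). They were lower in 11 (10.3% of all genes), among them 5 of 10 genes of nitric oxide synthesis, led by the inducible synthase Nos2 (-5.75), the natriuretic peptide receptor Npr1 (-5.12) and Ddah1 (-3.47). The smooth muscle gate was set by smooth muscle markers, so higher contractile genes in mural or smooth muscle cells were largely fixed in advance. This holds for each comparison of those cells within the penis. Endothelium exceeded mesenchyme in 16 of 51 (13.3% of all genes), with 6 of 10 tested genes of nitric oxide synthesis among them and 0 of those 10 lower. Mesenchyme was in turn above endothelium in 16 (18.6% of all genes), led by Ece2 (-4.78), Edn3 (-3.87) and Pde11a (-3.46). Mural cells exceeded mesenchyme in 17 of 51 and were lower in 5 (all genes 5.15% and 3.25%), Mrvi1 (4.33), Mylk (3.17) and Myl9 (3.14) being the first of the higher. Glia exceeded mesenchyme in 6 of 51 and were lower in 27 (28.2% of all genes called in either direction). The median log2 there was -1.11, against -0.01 over all genes. Smooth muscle exceeded pericytes in 10 of 43 and was lower in 1 (all genes 1.8% and 1.12%), where none of the members was called. Arterial cells were above the other endothelial cells in 1 of 44 and lower in 0 (all genes 0.882% and 0.125%). It was Npr3, the clearance receptor of natriuretic peptides (log2 1.88 ± 0.24 (SE)).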

How the data were processed

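Single-cell RNA-seq libraries (10x Genomics 3' kit) were used, 3 of penis, 1 of forelimb and 1 of hindlimb, as the UMI counts the authors deposited, unnormalized and 1 matrix a library; the submitters' processing notes name Cell Ranger 7.0.0 and mm10. Cells were kept at the study's limits, read as genes per cell: 500 to 6000 genes and at most 5% mitochondrial UMIs (penis), 100 to 9000 or 9500 genes and at most 10% (forelimb, hindlimb), and log10 genes over log10 UMIs of at least 0.8. Kept UMIs were 51529854 to 68417925 a penis library and 142718533 to 148752710 a limb library. Of 129 marker genes, a gate needed the number set from marker counts alone. Cells in more than 1 of the endothelial, mural, epithelial, immune, glial, melanocyte, skeletal muscle and red blood gates were left out. Cells in 1 of these were kept there even if they also met the mesenchyme, tendon, chondrocyte or osteoblast limit. Mural cells that met both limits were counted as smooth muscle. Among the rest, osteoblast came before chondrocyte, tendon and mesenchyme, in that order. No doublet caller was run, and gates under 20 cells in a library were not tested.

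UMIs were summed per library and gate and tested with edgeR 4.0.16 (quasi-likelihood, TMM, filterByExpr; R 4.3.3), adjusted by Benjamini-Hochberg over all genes tested. Comparisons within the penis had the library as a block, since both gates come from 1 library. Shares of cells with a UMI were taken at 2000 UMIs a cell and compared by a two-sided exact permutation test over 10 splits. Intervals and limits from 0 UMIs (3 counts over the group) cover counting error only. DESeq2 1.42.0, DESeq2 size factors, no filter, other gates, all barcodes and leaving out each library were alternatives. The scripts were tested on simulated counts.

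The members, the marker lists and the 57 pathway genes were chosen with earlier results of these data known. Named pathway genes were up to 3 called in each direction with the largest change, and the genes most like a member those with the highest r among 13851 with at least 10 CPM in a sum. Genes were matched by symbol; overlapping opposite-strand genes were left as counted.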

Additional observations from a re-analysis of the deposited data

Results flagged for a closer look

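The difference between penis and limb was called unequal across cell types for 6 members by edgeR's test of the difference between the differences, and for 4 of them the calls rest on single libraries. For endothelium and mesenchyme 5 of 9 tested members were called, where 9.38% of 15337 genes were. For mural cells and endothelium it was 4 of 9 (4.94%), and for mural cells and mesenchyme 1 of 9 (2.81%). The count of 6 joins these tests. For Gucy1a1 the penis excess was larger in endothelium than in mesenchyme by log2 3.63, and the mural minus endothelial difference was log2 -3.38. For Gucy1b1 and Edn1, whose mesenchymal means were not higher in the penis, the endothelial difference exceeded the mesenchymal by log2 1.62 and 1.51. Pde5a went the other way, with log2 -1.41 for endothelium minus mesenchyme and 1.19 for mural minus endothelial cells. Ednra did the same, with log2 -1.33 and 1.60. For Ednrb the penis minus limb difference was larger in mural than in endothelial cells by log2 4.34 and than in mesenchyme by log2 5.32. The limb mural gates held 2 Ednrb UMIs each, and in endothelium and mesenchyme its level was lower in the penis. With pericytes in place of mural cells the first Ednrb difference was 2.94 and not called. Without the forelimb the calls of Gucy1b1 (1.04), Pde5a (-0.83 and 0.63) and Ednra (-0.82 and 0.98) were lost, and without the hindlimb that of Edn1 (1.53). Without penis library 1 those of Pde5a for mural minus endothelial cells (1.11) and Ednra for endothelium minus mesenchyme (-1.09) were lost, and without penis library 3 those of Gucy1b1 (1.45), Pde5a for mural minus endothelial cells (1.16) and Ednra (-1.31 and 1.52). Mural and endothelial excess were each measured against the same 5 libraries, and no explanation of these differences was tested.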

How the results depend on the processing

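Of 1048 values recomputed for 97 single differences and shares, 966 stayed the same, 52 lost a call, 24 gained one and 6 turned direction. Shares have no limit and were compared by direction only. A gene that fell under the filter on low counts in an alternative gave no value, so a call lost that way is not counted. The looser limits on p and fold were applied to the main fit and could only add calls. The 6 that turned direction belong to differences that were not called. Ednra in endothelium was -0.10 without cells holding mural UMIs, and ran from -0.25 to 0.74 as single libraries were left out. Edn1 in the other endothelial cells ran from -0.036 to 1.02 in the same way. Gucy1b1 in the mural gate was -0.18 with 1 more marker needed and -0.068 over all barcodes. The endothelial Gucy1a1 difference and both tests in which it exceeded mesenchyme and mural cells were called under every alternative run, as were those of Pde5a and Ednra in the mural gate and in mesenchyme.

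With an adjusted p under 0.05 and no limit on the fold, members called rose to 6 in endothelium, 5 in the other endothelial cells, 5 in the mural gate, 5 in pericytes, 6 in mesenchyme, 3 in tendon, 2 in immune cells and 2 in glia. These limits are looser, so the share of all genes called rises with them. The counts of members here and in the next paragraph show how far calls held. They are not set against the share of all genes called under the same setting. DESeq2 called 0 in tendon and 1 in epithelium. With 1 more marker needed, tendon had 0 and glia 1, pericytes gained Ednrb (3.19), endothelium lost Gucy1b1 (0.92), arterial cells Gucy1a1 (1.92) and chondrocytes Pde5a (0.90), and Ednra was not called in the test of mural against endothelial excess. Without the deepest 10% of cells, a guard against doublets, epithelium had 0 and immune cells 2, endothelium lost Edn1 (0.98), and the tests of unequal excess lost Ednra (-0.69 and 0.94) and Pde5a (1.00 between mural cells and endothelium). With all barcodes as deposited, tendon had 3, immune cells 2 and glia 1, while Edn1 was lost in endothelium (0.88) and in arterial cells (1.13). Without the filter on low counts, smooth muscle against pericytes gave 2. Over endothelial cells without mural UMIs, chosen after the data were seen, Edn1 was 0.99 and not called, the Ednra tests of unequal excess were not called (-1.60 and 1.86), and with pericytes in place of mural cells, also chosen later, the Ednrb difference between mural and endothelial excess was 2.94 and not called.

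Leaving out each library in turn, the number of members called ran from 1 to 3 in endothelium (1 without the forelimb), 1 to 3 in arterial cells (1 without the hindlimb), 2 to 4 in the other endothelial cells (2 without the forelimb), 0 to 1 in tendon, 0 to 3 in epithelium (0 without the forelimb or the hindlimb), 0 to 1 in immune cells (0 without the forelimb) and 0 to 1 in glia. It ran from 1 to 2 for arterial against other endothelial cells, 1 to 2 for mural cells and mesenchyme, 2 to 5 for endothelium and mesenchyme, and 2 to 4 for mural cells and endothelium, the last 3 being tests of unequal excess. A group left with 1 limb library was taken to vary like the penis libraries. The fit with no replicate block changed no count of calls: it gave 7 (mural against endothelial), 5 (mural against mesenchyme), 7 (endothelial against mesenchyme), 6 (glial against mesenchyme), 0 (smooth muscle against pericyte), 1 (arterial), and 1, 5 and 4 for the tests of unequal excess. No paired analysis was possible between penis and limb because each limb has 1 library and no number marks a shared mouse.

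The limits are 2 limb libraries from different organs, a tissue contrast that also holds age and preparation, marker gates in place of an annotation, no doublet caller, no estimate of free RNA, and 37 limb smooth muscle cells in all. The exact test of shares cannot go below 0.1. Of the 12 shares of cells compared between penis and limb in the report, 1 changed direction at 1000 or 4000 UMIs or unthinned. It was Gucy1a1 in glia (unthinned). Of the 98 other combinations of gene and gate, 11 changed direction at a depth, Prkg1 in osteoblasts, tendon cells and epithelium among them.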
